A study of Mus musculus with 24 samples.

Results

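The expression of 10 genes of lipid use, *Angptl4*, *Pdk4*, *Ucp3*, *Ucp2*, *Acot1*, *Acot2*, *Fabp3*, *Cd36*, *Lpl* and *Plin2*, was described in *M. gastrocnemius* of mice under hypoxia (Hypox) or normoxia (Norm). The genes were picked by name, with their difference between Hypox and Norm already known, so that this difference is given for them as a description without a test. They are 10 of 34797 gene names on the array and were measured by 13 of 55681 probes. Of these, 12 probes for 9 genes had a mean Cy5 signal over 2 times the local background, against 9139 genes in all. *Ucp2*, at 1.65 times the background, did not.

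The mice were male C57BL/6JOlaHsd animals kept singly, 10 weeks old at their arrival. All received a low-fat diet (10% of energy from fat) for 3 weeks and then a high-fat diet (40% of energy from fat) for 6 weeks. All were fasted during the exposure, which lasted 6 h at 12% oxygen for the 12 Hypox mice and at 20.9% oxygen for the 12 Norm mice. Each 2-colour array held the RNA of 1 mouse in Cy5 and a pool of all samples in Cy3, and values are log2 ratios of mouse over pool. A value of 0 is the level of the pool, and the ratios of different genes are not levels that can be set against each other. The data stand for a single strain and sex on a high-fat diet, and for whole muscle, in which fewer cells of a type and less RNA per cell cannot be told apart.

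Of the 24 arrays, 4 shared each of 6 slides, 2 from either group. Per array, the Cy5 signal averaged between 58.3 and 1014, with slide 1 the dimmest. The array of Norm replicate 5 stood apart in the markers of slow muscle fibres. Hypox replicate 2 was the lowest Hypox array for 20.8% and the highest for 25.9% of all genes, and the lowest for 4 of the 9 genes above the filter, *Ucp3*, *Acot2*, *Fabp3* and *Cd36*, and for the dim *Ucp2*. Without it, the log2 fold changes of these 4 were 0.35, 0.16, 0.11 and 0.33. The 7 fast-fibre and general markers of skeletal muscle on the list were all measured. At an unadjusted P-value under 0.05, 12.2% of all genes differed between Hypox and Norm by limma's moderated test, 7.17% higher and 5.07% lower in Hypox, and 0.339% differed after Benjamini-Hochberg adjustment.

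In fasting, adipose tissue releases fatty acids, and peroxisome proliferator-activated receptors (PPARs), which are bound by fatty acids, switch on genes that let muscle take up, store and burn them. A PPAR binds DNA next to a retinoid X receptor. LPL, on the capillary wall, frees fatty acids from lipoproteins and is inhibited by ANGPTL4. CD36 takes fatty acids up at the cell surface and FABP3 carries them in the cytosol. PLIN2 coats lipid droplets. ACOT1 in the cytosol and ACOT2 in the mitochondrion split acyl-CoA into fatty acid and CoA, UCP2 and UCP3 are carriers of the inner mitochondrial membrane, and PDK4 blocks the entry of pyruvate into the mitochondrial oxidation of glucose.

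Promoter sequence of RefSeq (GRCm38.p6) was at hand for 8 of the 10 genes, all but *Angptl4* and *Lpl*. A window of 300 bases, 250 of them before the start, was searched on both strands. The direct repeat to which PPAR and retinoid X receptor bind, AGGTCA, 1 base and AGGTCA again, was in 0 of the 8 windows and in 0.0396% of all 32851 windows. A single AGGTCA, which is part of that repeat, was in the windows of *Ucp3*, *Cd36* and *Plin2*, 3 of 8, and in 16.3% of all windows. The FOXO site GTAAACA (3.65% of all windows) and the glucocorticoid element, GNACA and TGTNC with 3 bases between them (0.475%), were in 0 of 8. The core ACGTG of the hypoxia response element (19.6%) was in that of *Plin2*, on both strands at an overlapping place, beside its start. The 250 bases before the start are shown for the genes that hold AGGTCA, in capitals where it or its complement TGACCT stands. In *Ucp3* it begins 149 and 44 bases before the start, in *Cd36* 228 and in *Plin2* 218. A match is a description of the letters, not a bound site.
Ucp3 chr7:100472741-100472990, plus strand: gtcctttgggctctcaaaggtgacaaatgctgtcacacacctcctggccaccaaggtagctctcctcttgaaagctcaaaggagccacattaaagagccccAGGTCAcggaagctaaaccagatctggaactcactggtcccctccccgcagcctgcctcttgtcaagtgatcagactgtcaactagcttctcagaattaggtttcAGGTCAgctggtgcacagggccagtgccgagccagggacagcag
Cd36 chr5:17835897-17836146, minus strand: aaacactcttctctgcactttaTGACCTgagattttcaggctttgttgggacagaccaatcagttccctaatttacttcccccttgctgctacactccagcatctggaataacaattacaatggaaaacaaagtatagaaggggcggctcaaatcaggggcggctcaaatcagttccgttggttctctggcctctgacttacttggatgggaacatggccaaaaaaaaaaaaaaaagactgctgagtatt
Plin2 chr4:86670060-86670309, minus strand: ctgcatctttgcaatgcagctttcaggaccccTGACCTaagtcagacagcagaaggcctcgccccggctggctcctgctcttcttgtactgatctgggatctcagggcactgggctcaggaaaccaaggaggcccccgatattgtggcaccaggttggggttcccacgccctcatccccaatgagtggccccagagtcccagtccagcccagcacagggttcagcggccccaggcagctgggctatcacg

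The 9 genes above the filter had a higher mean in Hypox than in Norm, as did 58.8% of all genes, except that *Lpl* turned with the mean of its probes or array weights, *Lpl* and *Fabp3* without Norm replicate 5, and *Fabp3* without Hypox replicate 4. Their log2 fold changes ranged from 0.049 to 0.66, with a median of 0.16, beside a median of 0.029 over all 9139 genes. At an unadjusted P-value under 0.05 stood 4 of the 9, *Angptl4*, *Ucp3*, *Cd36* and *Plin2*, and none after adjustment, beside the 12.2% and 0.339% of all genes. Since these genes were picked on this contrast, nothing is read from these counts. The groups overlapped for each of the 13 probes.

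**Figure D1:**
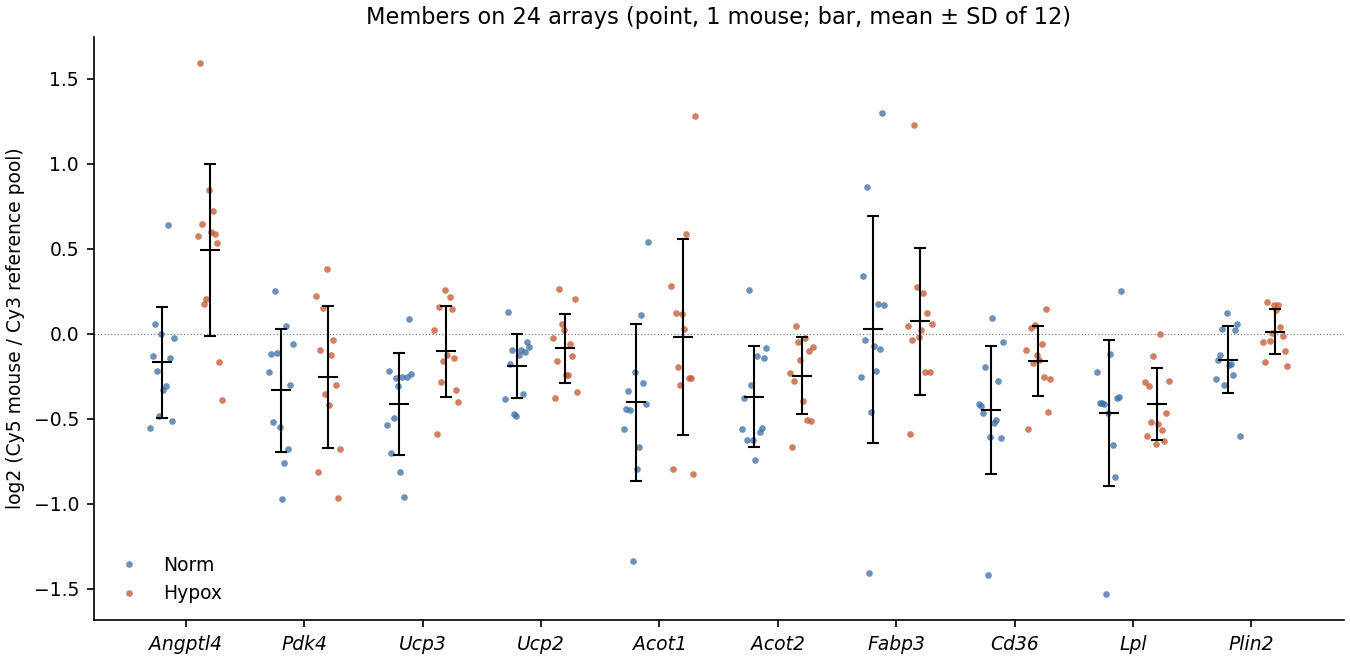
Log2 ratio of mouse over reference pool (y axis) for the brightest probe of each gene (x axis) in 12 Norm (blue) and 12 Hypox (orange) mice; bars are mean ± SD. *Angptl4* lies at a mean of -0.17 in Norm and 0.49 in Hypox, and Norm replicate 5 is the lowest point of *Acot1*, *Fabp3*, *Cd36* and *Lpl*.

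*Angptl4*, the inhibitor of LPL, had the highest log2 fold change of the 10 genes. It ranged from -0.56 in Norm replicate 1 to 0.64 in Norm replicate 9 (median -0.18), and from -0.39 in Hypox replicate 12 to 1.59 in Hypox replicate 2 (median 0.58). Of the 12 Hypox mice, 11 lay above the Norm median and 4 above all Norm mice. Norm averaged -0.17 ± 0.33 (SD, n = 12) and Hypox 0.49 ± 0.51 (SD, n = 12). This is a log2 fold change of 0.66 (SE 0.16), rank 4 from the highest among the 9139 genes. Within slides, Hypox was the higher group on 6 of 6, which held for 4.74% of all genes, by 0.12 on slide 2 to 1.47 on slide 3. Slide 3 carries Hypox replicate 2, and without this mouse the log2 fold change was 0.56. The reference channel itself differed by 0.061 on the log2 scale between the groups.

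*Lpl* was measured by a bright probe near the end of its message and by a probe 5.16 kb away in its coding part, and these differed in sign. At the bright probe, Norm ranged from -1.53 in replicate 5 to 0.25 in replicate 12 (median -0.41) and Hypox from -0.65 to -0.0021 (median -0.49). The log2 fold change was 0.050 (SE 0.13), with Hypox higher on 2 of 6 slides, and -0.047 without Norm replicate 5. At this probe the Hypox mice lay within the Norm range, with 3 Norm mice below and 1 above all of them. At the coding probe, Norm ranged from -0.95 in replicate 5 to 0.28 in replicate 12 (median -0.25) and Hypox from -0.84 to 0.19 (median -0.48). The log2 fold change there was -0.17 (SE 0.13), with Hypox higher on 1 of 6 slides. At either probe the difference was smaller than the SD over the Norm mice. In the authors' table the log2 fold changes were 0.35 and 0.035. The coding probe, at mm9 chr8:71425050-71425109 on the plus strand, is shown as the part of the message in which Hypox was the lower group.
Lpl coding probe: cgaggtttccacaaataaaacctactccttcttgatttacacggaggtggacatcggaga

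*Cd36*, the fatty acid translocase, was lowest at -1.42 in Norm replicate 5 and highest at 0.094 in Norm replicate 7 (Norm median -0.45), and ranged from -0.56 to 0.14 in Hypox (median -0.14). Of the Hypox mice, 10 of 12 lay above the Norm median. Norm averaged -0.45 ± 0.38 (SD, n = 12) and Hypox -0.16 ± 0.20 (SD, n = 12), for a log2 fold change of 0.29 (SE 0.12). Without Norm replicate 5 it was 0.20. Hypox was the higher group on 6 of 6 slides, by 0.083 on slide 3 to 0.49 on slide 4.

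*Fabp3*, the fatty acid binding protein of muscle, had the widest spread over Norm mice of the 10 genes and a small difference. At its brightest probe, Norm ranged from -1.41 in replicate 5 to 1.30 in replicate 11 (median -0.054) and Hypox from -0.59 to 1.23 (median 0.035). The log2 fold change was 0.049 (SE 0.21), and Hypox was higher on 3 of 6 slides. Without Norm replicate 5 it was -0.082. The other probe, which shares 51 of its 60 bases with the first and is no independent measurement, gave 0.023 (SE 0.28). *Fabp3* was the gene of this group that differed most between slides, from a mean of -0.41 on slide 5 to 0.86 on slide 1, the dimmest slide (limma F test over slides, P-value = 0.00142, adjusted P-value = 0.0513). For the other 8 genes the adjusted P-value of this test, which the choice of genes did not use, lay between 0.273 and 0.974, beside 2.75% of all genes under 0.05. On slide 1 the mean of the 7 skeletal muscle markers was 2.33 and 2.17 in Norm replicates 4 and 11. It was 2.13 and 1.00 in Hypox replicates 4 and 12, and at most 1.05 (Norm replicate 8) on the other slides. Whether the slide 1 shift is particular to *Fabp3* was not tested.

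**Figure D2:**
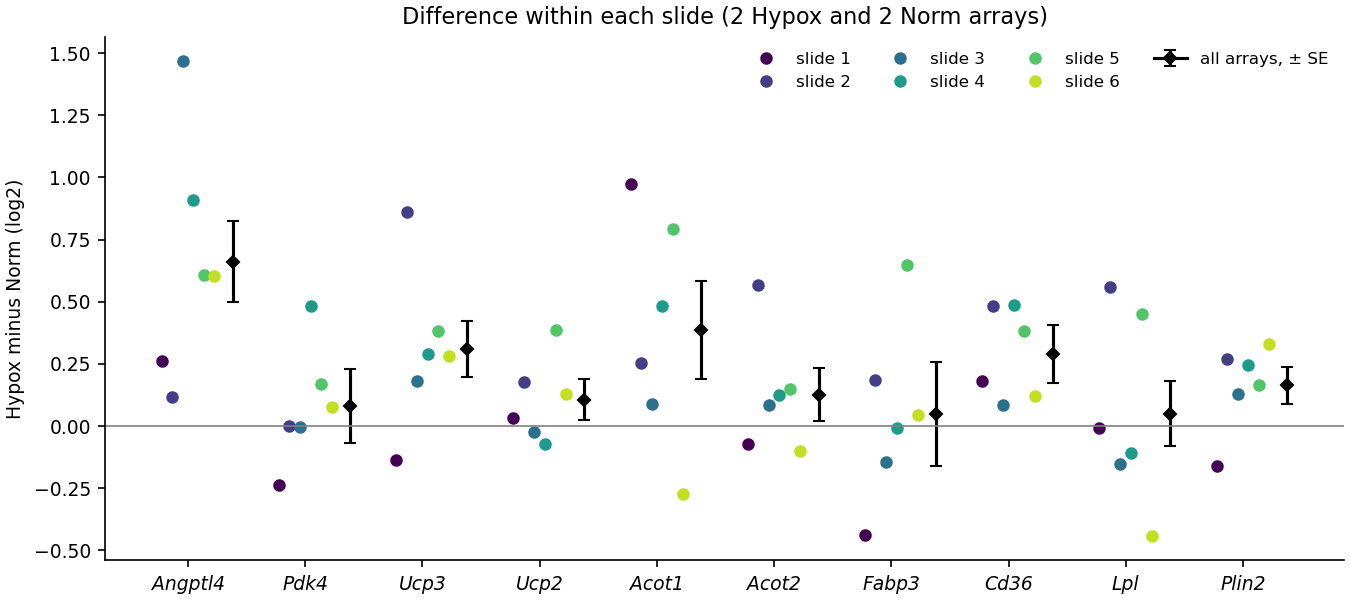
Mean of the 2 Hypox arrays minus mean of the 2 Norm arrays on each of 6 slides (coloured points), and the log2 fold change over all arrays with its SE (black diamond), for each gene. All 6 slides lie above 0 for *Angptl4* and *Cd36*, whereas *Pdk4*, *Fabp3* and *Lpl* lie on both sides.

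*Plin2*, the lipid droplet coat, had the narrowest spread of the 9 genes above the filter. It ranged from -0.60 in Norm replicate 12 to 0.12 in Norm replicate 6 (median -0.17) and from -0.19 to 0.18 in Hypox (median -0.0035). Of the Hypox mice, 10 of 12 lay above the Norm median. Norm averaged -0.15 ± 0.20 (SD, n = 12) and Hypox 0.011 ± 0.13 (SD, n = 12), for a log2 fold change of 0.16 (SE 0.074), with Hypox higher on 5 of 6 slides. At least 5 slides were higher for 19.2% of all genes. The exception was slide 1, at -0.16.

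*Ucp3*, the uncoupling protein of muscle, was measured by probes 3.83 kb apart, which gave the same direction. At the brighter probe, Norm ranged from -0.96 in replicate 9 to 0.084 in replicate 11 (median -0.28) and Hypox from -0.59 in replicate 2 to 0.25 in replicate 6 (median -0.14). Norm averaged -0.41 ± 0.30 (SD, n = 12) and Hypox -0.10 ± 0.27 (SD, n = 12). The log2 fold change was 0.31 (SE 0.11), with Hypox higher on 5 of 6 slides. At the coding probe it was 0.23 (SE 0.078), with Hypox higher on 6 of 6 slides and 7 of 12 Hypox mice above all Norm mice. This probe, at mm9 chr7:107630399-107630458 on the plus strand, is shown because it separated the groups most by that count. Its signal was dim, 3.96 times the background, and stood well above it on 9 of 12 arrays in either group.
Ucp3 coding probe: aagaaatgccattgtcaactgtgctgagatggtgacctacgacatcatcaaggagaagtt

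*Ucp2*, whose probe lies 13.5 kb from that of *Ucp3*, was too dim for a firm value. Of its readings, 1 of 12 in Norm and 4 of 12 in Hypox stood well above the background. Its log2 ratios lay between -0.48 and 0.13 in Norm and between -0.38 and 0.26 in Hypox, with a difference of 0.11 (SE 0.083). In the normalized values of the authors' table its difference was -0.11, so that its direction was not settled.

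**Figure D3:**
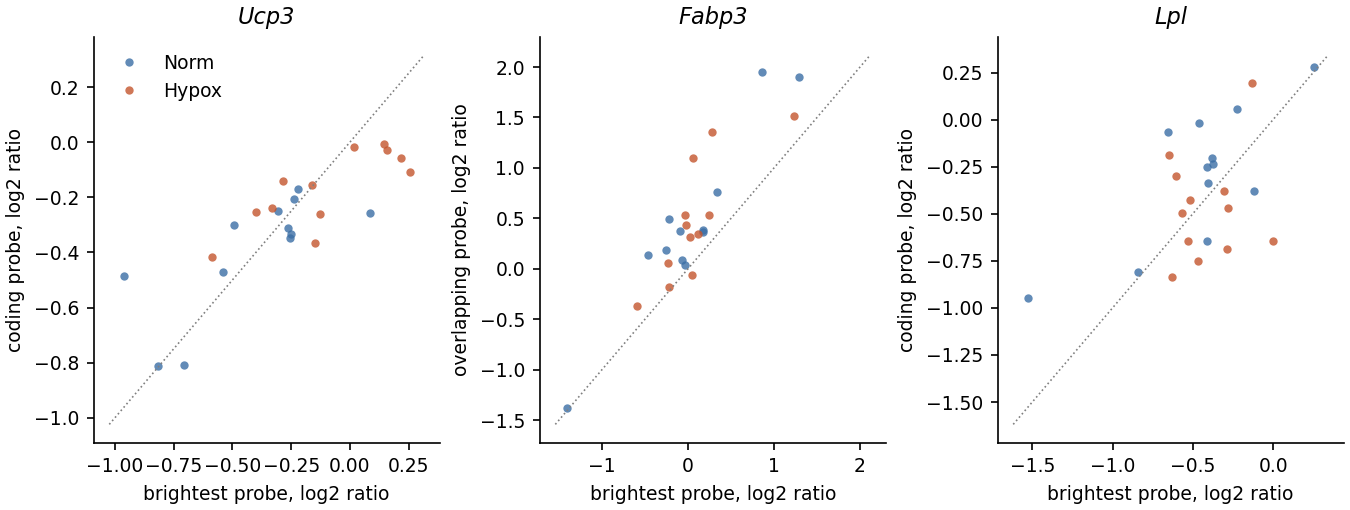
Log2 ratios of both probes of *Ucp3*, *Fabp3* and *Lpl* in each mouse (blue, Norm; orange, Hypox); the dotted line marks equal values. At *Lpl* the Hypox mice lie at a mean of -0.41 on the brightest probe (x axis) and -0.47 on the coding probe (y axis), and the Norm mice at -0.46 and -0.30.

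*Acot1* and *Acot2* are neighbours on chromosome 12, with probes 24.4 kb apart that share no run longer than 6 bases, and belong to a family of close copies whose other members may bind the same probes. *Acot1* ranged from -1.34 in Norm replicate 5 to 0.54 in Norm replicate 12 (median -0.43), and from -0.83 in Hypox replicate 11 to 1.28 in Hypox replicate 12 (median -0.084). The log2 fold change was 0.39 (SE 0.20), from -0.41 ± 0.46 (SD, n = 12) in Norm to -0.019 ± 0.58 (SD, n = 12) in Hypox, with Hypox higher on 5 of 6 slides. The highest mouse and the widest slide difference, 0.97, were both on slide 1, without which the log2 fold change was 0.27. Without Norm replicate 5 it was 0.30. *Acot2* lay between -0.74 and 0.25 in Norm (median -0.47) and between -0.67 and 0.046 in Hypox (median -0.19). Its log2 fold change was 0.13 (SE 0.11), with Hypox higher on 4 of 6 slides. The signal of *Acot2* was dim, 3.00 times the background, and stood well above it on 8 of 12 Norm and 10 of 12 Hypox arrays. Over 24 arrays with group and slide means removed, the ratios of *Acot1* and *Acot2* had an r of 0.17, which was 0.27 without Norm replicate 5 and 0.42 without slide 1.

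*Pdk4*, a kinase that fasting is known to induce in muscle, was well above background on all arrays, and its groups lay close together. It ranged from -0.97 in Norm replicate 7 to 0.25 in Norm replicate 4 (median -0.26) and from -0.97 in Hypox replicate 11 to 0.38 in Hypox replicate 6 (median -0.21). The log2 fold change was 0.081 (SE 0.15), with Hypox higher on 3 of 6 slides. In the authors' table it was 0.46, beside a median of 0.085 over all genes there.

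The Norm mice differed more in most of these genes than in the median gene, which held less widely in Hypox. The SD over Norm mice was at a median percentile of 90.3 among all genes, from 39.6 for *Plin2* to 98.6 for *Fabp3*. Brightness was not matched in this ranking. *Fabp3* was the brightest of these genes, at 712 times the background, and *Plin2* stood at 4.46 times. *Acot1*, at 7.73 times, was at percentile 95.2. How far the signal sets these ranks was not tested. The SD over Hypox mice was at percentiles from 5.24 for *Plin2* to 97.5 for *Acot1*. In Hypox, *Acot2*, *Cd36*, *Lpl* and *Plin2* varied less than the median gene, and *Angptl4*, *Pdk4*, *Ucp3*, *Acot1* and *Fabp3* more. In Hypox the spread of *Lpl* was 0.49 times and that of *Cd36* 0.54 times that in Norm, and of the median gene 1.09 times. Without Norm replicate 5 these ratios were 0.75 and 0.88. For *Angptl4* the ratio was 1.56, but 1.19 without Hypox replicate 2, where that of the median gene was 0.95, and 2.36 without Norm replicate 9.

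*Cd36* and *Lpl* followed each other across mice, more closely in Norm than in Hypox, and the relation of *Fabp3* to them rested in part on Norm replicate 5. With group and slide means removed, r over the 24 arrays was 0.79 for *Cd36* and *Lpl*, 0.68 for *Fabp3* and *Cd36* and 0.60 for *Fabp3* and *Lpl*. Without slide 1, r was 0.83, 0.86 and 0.81, and without Norm replicate 5 it was 0.58, 0.40 and 0.24. With slide means kept, it was 0.68, -0.040 and 0.013 over the other 11 Norm mice alone. These include the slide 1 mice, Norm replicates 4 and 11, at 0.86 and 1.30 for *Fabp3*. Over the 12 Hypox mice alone, with slide means kept, r was 0.32, 0.43 and 0.19. *Angptl4* and its target *Lpl* had an r of -0.25 (-0.40 without this mouse). All these values share the reference pool and, within a slide, the scan. Of the slow-fibre markers, 7 of 7 were measured. Their mean log2 ratio was -2.11 in Norm replicate 5 and between -0.81 and 0.54 in the other Norm mice, and lay between -0.30 and 0.18 in Hypox. It had an r of 0.84 with *Lpl*, 0.67 with *Cd36* and 0.66 with *Fabp3*, and of 0.64, 0.27 and 0.30 without Norm replicate 5. For *Acot2* it was 0.24, and 0.77 without this mouse, then the highest of the 9 genes. The mean of the markers was higher in Hypox by 0.36, and by 0.21 without Norm replicate 5. Of the 7 markers, 2 passed the unadjusted test, both higher in Hypox. These were the slow troponins *Tnni1* (log2 fold change 0.61, P-value = 0.00089, adjusted P-value = 0.0977) and *Tnnc1* (0.44, P-value = 0.0221, adjusted P-value = 0.303). Both passed without Norm replicate 5 (log2 fold changes of 0.51 and 0.31) but not with median centring. The slow troponin *Tnnt1* (0.38, P-value = 0.125), *Myh7* (0.38), *Myl2* (0.34), *Atp2a2* (0.30) and *Myl3* (0.10), also higher, did not pass.

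**Figure D4:**
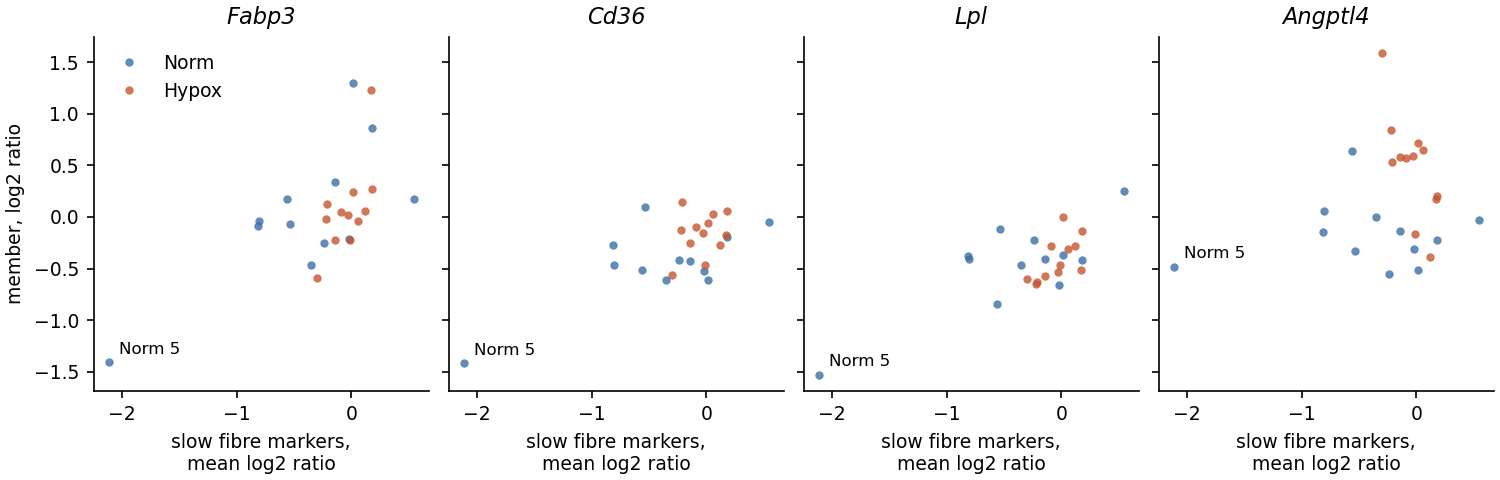
Log2 ratio of *Fabp3*, *Cd36*, *Lpl* and *Angptl4* (y axis) against the mean log2 ratio of 7 slow-fibre markers (x axis), 1 point per mouse (blue, Norm; orange, Hypox). Norm replicate 5 lies apart at -2.11 on the x axis and is the lowest mouse for *Fabp3*, *Cd36* and *Lpl* but not for *Angptl4*.

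Adipocytes also express *Lpl*, *Cd36* and *Plin2*, and their markers were mostly lower in Hypox. Of 9 adipocyte markers, 6 were measured (*Lep*, *Plin1* and *Adrb3* were under the filter) and 5 had a lower mean in Hypox. *Cfd* (-0.56, P-value = 0.0177) and *Adipoq* (-0.33, P-value = 0.0309) passed the unadjusted test, with adjusted P-values of 0.279 and 0.348. The mean over the markers lay between -0.66 and 0.86 in Norm and between -0.64 and -0.15 in Hypox. Its difference, Hypox minus Norm, was -0.20, and -0.12 without Norm replicate 12, the highest mouse. *Adipoq* did not pass without Norm replicate 12 (-0.25, P-value = 0.0682), nor without any 1 of Norm replicates 3 and 7 and Hypox replicates 1 and 9 (P-values between 0.0527 and 0.0610). Neither gene passed with the deposited values or median centring. The mean had an r of 0.71 with *Lpl*, 0.60 with *Cd36* and -0.53 with *Plin2*, and of 0.64, 0.46 and -0.64 without Norm replicate 5. Of 8 endothelial markers 5 were measured, with a mean between -0.29 and 0.030 in Norm and between -0.22 and 0.061 in Hypox, and an r of 0.71 with *Fabp3* (0.62 without Norm replicate 5). Of these, *Cdh5* (0.38, P-value = 0.00535, adjusted P-value = 0.197) and *Esam* (0.28, P-value = 0.00141, adjusted P-value = 0.117) passed, both higher, while *Flt1* (-0.045), *Kdr* (-0.15) and *Tie1* (-0.0040) did not pass. With median centring neither *Cdh5* nor *Esam* passed, and *Cdh5* did not with processed signals. The lung gene *Sftpc* passed the unadjusted test as higher (0.81, adjusted P-value = 0.271; 0.56 without Hypox replicate 8, the highest mouse), the other 4 of 5 lung markers were under the filter, and none of the 4 macrophage, 2 red cell and 7 skeletal muscle markers passed. The part of these cell types in the values above was not tested.

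The gene most like each of the 9 genes above the filter across mice, with group and slide means removed, was in no case another of them. For *Angptl4* it was *Adgrf5*, an adhesion receptor of endothelium and lung (r = 0.89, and 0.80 without Hypox replicate 2). With the mean of the endothelial markers, *Angptl4* had an r of 0.11, and with the lung gene *Sftpc* of -0.096. *Adgrf5* itself was higher in Hypox by 0.44 (SE 0.12, P-value = 0.00084, adjusted P-value = 0.0977). For *Acot1* it was *Zbtb16*, a zinc finger factor that glucocorticoids induce (r = 0.79, and 0.65 without Hypox replicate 12). For *Fabp3* it was *Cox4i1*, a subunit of cytochrome c oxidase (r = 0.85), for *Lpl* *Tmem65* (0.85) and for *Cd36* *Ddx52* (0.89), and these were 0.89, 0.67 and 0.80 without Norm replicate 5. For *Pdk4* it was *Tiparp* (0.79), for *Ucp3* *Mta2* (0.81), for *Acot2* *Aup1* (0.84) and for *Plin2* *Tm2d3* (0.87). Each is the highest r among all genes measured on every array and so a description of these 24 arrays.

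Other genes of lipid use, on 8 lists of 82 genes, were tested in the same fit, in which 12.2% of all genes were called. The lists were chosen with earlier results of these data known. The counts and P-values of their genes, here and below, are therefore a description. Of 67 measured, 47 had a higher mean in Hypox, beside 58.8% of all genes. Unadjusted, 13 passed as higher and 1, *Vldlr*, as lower, beside 7.17% and 5.07% of all genes, and none passed after adjustment. The median log2 fold change of the 67 was 0.11, beside 0.029 over all genes, and 0.065 without Norm replicate 5. With the deposited values 5 passed as higher and 0 as lower, with processed signals 11 and 2, and with median centring none.

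**Figure D5:**
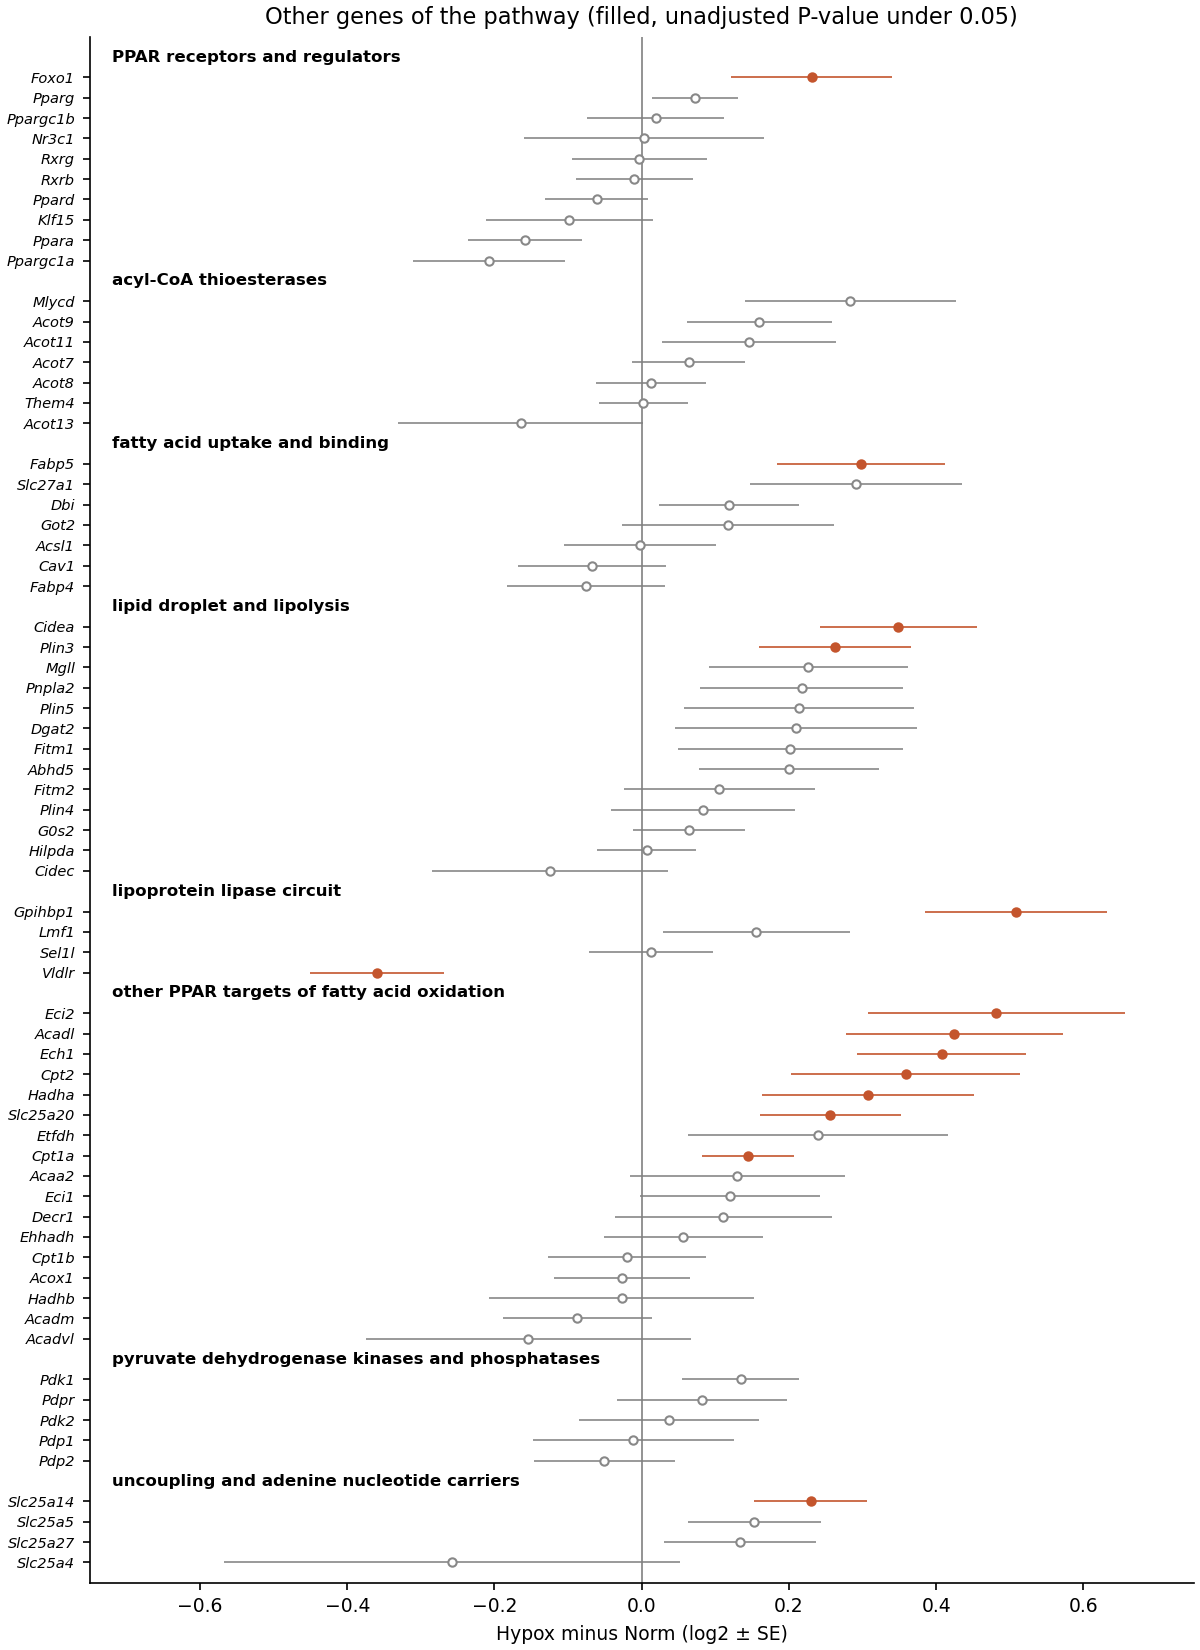
Log2 fold change of Hypox over Norm with its SE (x axis) for 67 other genes on 8 lists; filled points have an unadjusted P-value under 0.05 by limma. The 13 filled points to the right include 7 genes of fatty acid oxidation, and *Vldlr* at -0.36 is the only filled point to the left.

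Of 4 measured genes around LPL, 2 passed the unadjusted test, in opposite directions. *Gpihbp1*, which holds LPL on the capillary wall, was higher in Hypox by 0.51 (SE 0.12), from -0.42 ± 0.26 (SD, n = 12) to 0.084 ± 0.37 (SD, n = 12), on 6 of 6 slides (limma, P-value = 0.00032, adjusted P-value = 0.0620). *Vldlr*, the receptor that binds triglyceride-rich lipoproteins, was lower by 0.36 on the log2 scale, from 0.14 ± 0.14 to -0.22 ± 0.28 (log2 fold change -0.36, SE 0.091), on 6 of 6 slides (P-value = 0.00047, adjusted P-value = 0.0787). With slide as a block, the adjusted P-values were 0.0477 and 0.0494. In the authors' table, the log2 fold changes were 0.66 and -0.047, and with median centring, which shifts the median of all genes to 0.25, they were 0.82 and 0.11.

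Genes of fatty acid oxidation, the longest list, had the most calls, 7 of 17 higher and 0 lower, beside 7.17% and 5.07% of all genes. *Ech1* (0.41, P-value = 0.00138), *Acadl* (0.42, P-value = 0.00774), *Eci2* (0.48, P-value = 0.0101) and *Slc25a20* (0.26, P-value = 0.0128) had the smallest P-values, with adjusted P-values between 0.117 and 0.260. ECH1 and ECI2 move double bonds of unsaturated fatty acids, ACADL takes the first step of the chain, and SLC25A20 exchanges carnitine and acylcarnitine. The number that passed was 5 of 17 without Norm replicate 5 or without Hypox replicate 2, 3 or 6, 4 with processed signals, 2 with the deposited values and 0 with median centring. The other calls were *Cpt2* (0.36, P-value = 0.0288), *Cpt1a* (0.14, P-value = 0.0294) and *Hadha* (0.31, P-value = 0.0413), with adjusted P-values between 0.340 and 0.380. The muscle isoform *Cpt1b* (-0.020) and the medium-chain dehydrogenase *Acadm* (-0.088), named after their values were seen, did not pass. Among lipid droplet genes, 12 of 13 had a higher mean in Hypox, beside 58.8% of all genes. Of the 13, *Cidea* (0.35, P-value = 0.00287, adjusted P-value = 0.160) and *Plin3* (0.26, P-value = 0.0174, adjusted P-value = 0.278), both droplet proteins, passed. *Hilpda*, a droplet gene known to respond to hypoxia and named here after its value was seen, was at 0.0067 (P-value = 0.922).

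Among uptake and binding genes, 1 of 7 passed, *Fabp5* (0.30, P-value = 0.0144, adjusted P-value = 0.266), a further fatty acid binding protein. Of 4 carriers akin to the uncoupling proteins, *Slc25a14* passed (0.23, P-value = 0.00557, adjusted P-value = 0.197). Its log2 fold change was 0.60 with processed signals and 0.13 with the deposited values, where it did not pass (P-value = 0.231). None of 7 acyl-CoA enzymes other than *Acot1* and *Acot2* passed; *Mlycd*, malonyl-CoA decarboxylase, had the smallest P-value (0.28, P-value = 0.0580). None of 5 other pyruvate dehydrogenase kinases, phosphatases and their regulator passed, *Pdk1* having the smallest P-value (0.13, P-value = 0.102). Of the receptors and regulators, *Foxo1* passed as higher (0.23, P-value = 0.0437, adjusted P-value = 0.391), a call that was lost on leaving out any 1 of 12 arrays. *Ppara* was at -0.16 (P-value = 0.0507) and its coactivator *Ppargc1a* at -0.21 (P-value = 0.0541), both lower in Hypox on 6 of 6 slides but outside the threshold. In this list 1 gene passed as lower without Norm replicate 5, without slide 1, with processed signals, with Cy5 alone and with slide as a block. None did with the deposited values or median centring, and with the latter all 10 had a higher mean in Hypox.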

How the data were processed

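Total RNA of *M. gastrocnemius* from 12 Norm and 12 Hypox mice was measured on 2-colour arrays. The authors deposited, for each spot, the intensity as mean signal and local background of both channels, written by the scanner software (Agilent Feature Extraction 10.7.3.1 in the submitters' processing notes), and normalized log2 values in a series-wide table, whose scaling and use of the Cy3 channel are unknown (median 6.58 in every column; correlation with log2 Cy5 from 0.967 to 0.999). Of its value columns, 0 could not be tied to a sample.

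The direction, Cy5 mouse over Cy3 pool, follows the sample descriptions, as the dye fields of some Hypox samples differ. Readings of 7260 flagged spots and all control spots were dropped, and 0 were saturated. Signals were corrected by normexp (offset 50) and log2 ratios normalized by loess within each array. Probes were kept with a mean Cy5 signal more than 2 times the local background and no more than 4 arrays missing. RefSeq accessions named 27235 of the 55681 probes, current symbols 3581 and synonyms 565. The probe with the highest mean intensity stood for its gene. Hypox was compared with Norm by limma with no block, and P-values of 9139 genes were adjusted by Benjamini-Hochberg. Normexp, loess and the offset compress the ratios of dim probes. The spots well above background in Cy5 ranged from 9.42% to 37.8% per array, and 24 arrays limit the precision.

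The 10 genes, the 8 pathway lists and the 8 marker lists were chosen with earlier results of these data known, and 1 marker list is not reported here. Named were all 10 genes, of each pathway list up to 4 genes with the smallest unadjusted P-value under 0.05 (the smallest where none passed), and the most alike genes. The further calls of the fatty acid oxidation list were named in addition. The alternatives were other normalizations, the deposited values, filters on dim probes, the mean of the probes of a gene, a block for slide or for replicate number, array weights, the methods' t-test, and leaving out each array or, added after seeing the data, slide 1. The alternatives for the marker genes, marker means, list counts and spread were also added then. P-values measure the spread between the arrays of a group, each from 1 mouse.

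The tests ran in R 4.3.3 with limma 3.58.1, and figures were drawn in Python 3.11.15 with matplotlib 3.10.9. On simulated data for the comparison of Hypox with Norm, with 200 of 9139 genes changed, limma recovered 98.0% at a log2 change of 1 and 75.5% at 0.5. It also called 13 and 6 unchanged genes after adjustment. The simulated noise was independent between genes, without the deviations that genes share on a real array or slide. These rates therefore do not carry over to the real arrays.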

Additional observations from a re-analysis of the deposited data

How the results depend on the processing

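The log2 fold changes of *Angptl4*, *Ucp3* and *Acot1* stayed within their residual SD under every alternative run, between 0.56 and 0.83, 0.22 and 0.47, and 0.27 and 0.74. Values that moved by more than the SD did so mainly with centring each array on its median, which put the median of all genes at 0.25 and gave 0.63 for *Pdk4*, 0.73 for *Fabp3*, 0.60 for *Cd36*, 0.51 for *Lpl* and 0.35 for *Plin2*. The scanner software's processed signals gave 0.42 for *Acot2* and 0.58 for *Ucp2*, and the deposited values -0.11 for *Ucp2*. *Lpl* was negative with the mean of its probes (-0.061) and with array weights, and it and *Fabp3* were negative without Norm replicate 5, as was *Fabp3* without Hypox replicate 4 (-0.056). The cause was not tested.

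Of all genes, 1118 were called unadjusted and 31 adjusted. The counts were 1140 and 66 with processed signals, 32 and 0 with median centring, 733 and 15 with Cy5 alone, 488 and 1 with the deposited values, 1939 and 8 without a filter (more genes were tested), 1719 and 277 with array weights, 1297 and 70 with slide as a block, and 29 adjusted without slide 1. The methods' t-test gave 1112 unadjusted and 9 adjusted, and 516 and 1 on the deposited values. Of the calls, 58.6% were higher in Hypox, and with median centring 32 of 32. Leaving out single arrays gave from 974 to 1289 unadjusted and from 4 (without Hypox replicate 7) to 53 (without Norm replicate 12) adjusted calls. Leaving out any 1 of Norm replicates 1 to 8 or 12, or of Hypox replicates 1, 3 or 6 to 11, moved the adjusted count by over 1.5 times, and 3 to 5 of the 9 measured genes passed the unadjusted threshold. The replicate number as a block gave 1194 unadjusted and 18 adjusted calls. The deviations of same-numbered mice from their group means correlated between -0.20 and 0.52, over 0.1 in 3 of 12 pairs. Slide means were kept in them, and both arrays of replicate 4, at 0.52, were on slide 1. Whether the numbers pair the mice cannot be told from these values. Slide was called for 251 genes, for 2105 with processed signals, 8936 with median centring, 1097 with Cy5 alone and 6076 with the deposited values. Dim probes, as of *Ucp2*, limit what can be read.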
